A study of Mus musculus with 8 samples.

Results

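The mitochondrial ribosomal protein genes were followed in hearts of mice that lacked the estrogen-related receptors ERRα and ERRγ, alone or together. Members were all genes whose mouse symbol is Mrpl or Mrps followed by a digit, pseudogenes left out, which gave 78 of the 18656 genes listed in the 8 tables. By symbol, 49 of them belong to the large (Mrpl) and 29 to the small (Mrps) ribosomal subunit. Hearts came from C57BL/6 mice of postnatal day 16, in 4 littermate genotypes with 2 RNA-Seq libraries each, and each library was made from the pooled hearts of several mice. The αHetγWT reference carried 1 functional copy of Esrra (ERRα Het) and intact ERRγ, αHetγKO carried the same ERRα Het background with ERRγ deleted, αKOγWT lacked ERRα with ERRγ intact, and αKOγKO lacked both. Every mouse was therefore at least heterozygous for ERRα loss, and no ERRα wild-type heart was included. Per the study's methods the ERRα knockout was in the whole body and the ERRγ deletion was made by Cre recombinase under the cardiomyocyte promoter Myh6, so that cells of the heart other than cardiomyocytes kept ERRγ. Whether the γWT mice carried Cre is not given in the sources used here. According to the study, αKOγKO mice had a lethal dilated cardiomyopathy with heart failure from early in life, whereas the other genotypes had normal cardiac function. In every comparison with αKOγKO, loss of both receptors and heart failure therefore cannot be told apart.

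The mitochondrial ribosome is built from ribosomal RNA encoded by mitochondrial DNA and from proteins encoded in the nucleus, made in the cytosol and imported. Its large subunit holds the centre that joins amino acids and its small subunit reads the messenger RNA. The only products of this ribosome are the few subunits of the respiratory chain and ATP synthase that mitochondrial DNA encodes, and the heart depends on these complexes for ATP. Some of its proteins descend from the bacterial ribosome, whereas others were added in mitochondria. ERRα and ERRγ are orphan nuclear receptors that bind the promoters of many nuclear genes of energy metabolism.

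All 78 members were measured in every library and passed the filter on low counts. Uniquely assigned reads per library ranged from 28.2 to 36.8 M, and a member had between 424 and 9164 reads in a library. Esrra, which encodes ERRα, stood at 44.9, 45.8, 46.7 and 45.8 RPKM (reads scaled by gene length and by the total of the library) in the αHet libraries and at 1.68, 1.21, 1.42 and 1.64 in the αKO libraries, as the labels state. Esrrg, which encodes ERRγ, stood at 6.83 and 6.44 RPKM (αHetγWT), 7.75 and 8.23 (αHetγKO), 8.23 and 7.23 (αKOγWT) and 15.2 and 17.6 (αKOγKO), and a count over the whole gene does not check the deletion of part of it. The αKOγKO libraries differed more from each other than replicates of other genotypes did, with a chi-square per degree of freedom over genes of 62.4 against 6.56 to 17.1. Among members the median difference between replicates was small in each genotype, from -0.08 to 0.05 on the log2 scale. Since replicates are pools, p-values measure the spread between pools.

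Few member promoters matched the ERR core site, at a share near that of other genes. More of them than of other genes matched the sites of general promoter factors. Promoters of 300 bases, 250 before and 50 after a transcription start, were taken from RefSeq (GRCm38.p6), in which 69 of the 78 members matched with 75 promoters. Mrpl48, Mrpl2 and Mrps16 had more than 1 promoter. Among the members without a promoter were Mrps35 and Mrps34, those with the lowest and the highest log2 fold change in αKOγKO, and Mrpl54. The ERR core site AAGGTCA, searched on both strands, was found in 4 of the 75 (5.33%), against 4.72% of all 32851 promoters and 3.41% of promoters of tested genes. The extended form TNAAGGTCA, which contains the core site, was found in 0 of 75, against 1.28% of all promoters and 0.77% of promoters of tested genes. With shares this low, a count of 0 in 75 promoters does not set members apart. The binding motif of ETS factors, which include the nuclear respiratory factor GABP, written CCGGAAG, was found in 34.7% of member promoters, 15.4% of promoters of tested genes and 8.86% of all promoters. The motif of nuclear respiratory factor NRF1, written GCGCANGCG, was found in 21.3% of member promoters, 11.6% of promoters of tested genes and 6.25% of all promoters. The motif of YY1, written AANATGGCG, was found in 14.7%, 4.23% and 2.38% respectively. The ERR core site stood in promoters of Mrpl12, Mrpl36, Mrps15 and Mrps21. All 4 genes were lower in αKOγKO than in αHetγWT hearts, as were the genes of 65 of the 75 promoters, and Mrps15 (log2 fold change -0.29 ± 0.09, edgeR adjusted p = 0.0375) lost its call in 10 of the other settings tried. A match is a string of letters and not a measured binding site.

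**Figure D1:**
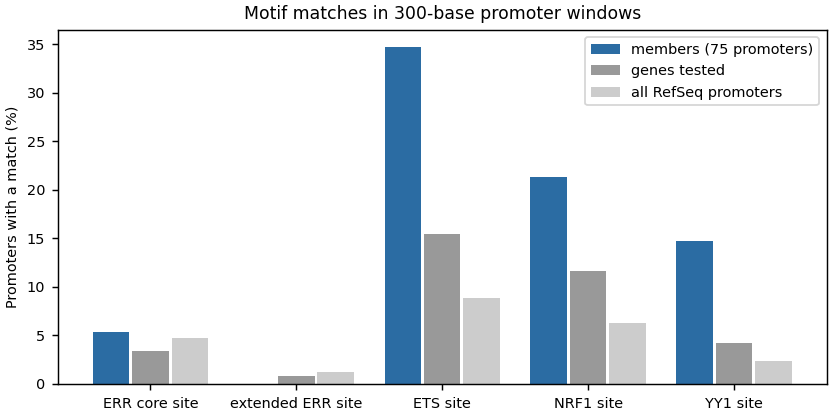
Share of 300-base promoters with at least 1 match to each motif (vertical axis, percent), for the 75 member promoters, promoters of tested genes and all RefSeq promoters. The members stand highest for the ETS (34.7%), NRF1 (21.3%) and YY1 (14.7%) motifs. For the ERR core site they (5.33%) stand close to all promoters (4.72%) and somewhat above tested genes (3.41%).

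Promoter sequences of 4 members are shown 5′ to 3′ on the strand of the gene, with the motif in capitals, in whichever orientation it lies. Mrpl12 and Mrps21 carry the ERR core site and are shown because they are the members named by rule that have it. In Mrpl12 the site lies 34 bases into the transcript, on the opposite strand. In Mrps21 it occurs 175 bases before the start on the opposite strand and 63 bases before the start on the gene's strand.
Mrpl12 (chr11:120484657-120484686, plus strand): ttagagccgcgtgTGACCTTcccgcttgcg
Mrps21 (chr3:95871515-95871764, minus strand): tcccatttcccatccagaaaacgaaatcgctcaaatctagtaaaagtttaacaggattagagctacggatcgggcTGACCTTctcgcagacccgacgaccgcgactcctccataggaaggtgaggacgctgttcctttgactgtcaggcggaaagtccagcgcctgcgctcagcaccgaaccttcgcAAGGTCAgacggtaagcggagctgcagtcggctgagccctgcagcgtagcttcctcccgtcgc
The promoters of Mrpl34 and Mrpl52 have an ETS motif before the start, 37 bases before it in Mrpl34 on the gene's strand and 47 bases before it in Mrpl52 on the opposite strand. They were chosen after the values were seen, as the members with the lowest and the highest log2 fold change in αKOγKO among those with an upstream ETS motif.
Mrpl34 (chr8:71464676-71464925, plus strand): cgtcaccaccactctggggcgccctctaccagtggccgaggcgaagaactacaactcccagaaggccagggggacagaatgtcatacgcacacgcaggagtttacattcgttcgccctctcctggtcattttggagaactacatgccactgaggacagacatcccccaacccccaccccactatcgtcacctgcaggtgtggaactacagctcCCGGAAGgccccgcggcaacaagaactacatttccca
Mrpl52 (chr14:54426659-54426908, plus strand): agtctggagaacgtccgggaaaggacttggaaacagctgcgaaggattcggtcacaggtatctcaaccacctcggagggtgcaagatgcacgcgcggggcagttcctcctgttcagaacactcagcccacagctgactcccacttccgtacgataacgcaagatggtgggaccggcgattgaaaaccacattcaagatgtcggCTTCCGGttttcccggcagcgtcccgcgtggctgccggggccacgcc
Over all member promoters found, the ETS motif was in 30.8% of the 65 promoters of members that were lower in αKOγKO and in 6 of the 10 promoters of other members.

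In hearts without both receptors most mitochondrial ribosomal protein genes were lower, in both subunits and by moderate amounts. Against αHetγWT, 66 of the 78 members were lower and 5 higher in αKOγKO (edgeR quasi-likelihood test, Benjamini-Hochberg adjusted p under 0.05), and 7 did not pass. Of all 15076 genes tested, 21.5% were lower and 20.7% higher. The median log2 fold change of members was -0.63, with a range from -2.00 to 0.54 and a middle span of quartiles from -0.87 to -0.37, against a median of 0.01 over all genes tested. In TMM-scaled CPM (counts scaled to a common library total), both αKOγKO libraries lay below all 6 others for 68 members and above all 6 for 4 members. Each of these patterns was found for 25.3% of all genes tested. The members of the large subunit were 41 lower, 2 higher and 6 not called, with a median of -0.65. Those of the small subunit were 25 lower, 3 higher and 1 not called, with a median of -0.60. With limma on log2(RPKM + 1), 59 members were lower and 5 higher, while the split over all genes moved from 3237 lower and 3127 higher to 2424 lower and 4168 higher. RPKM values are not rescaled between libraries, and the TMM factors were 1.05 and 1.08 in αKOγKO and 0.966 to 0.997 elsewhere, so that a log2 fold change lies slightly below the ratio of the RPKM values printed beside it. In RNA of whole hearts, fewer cells of a type and less RNA per cell cannot be told apart.

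**Figure D2:**
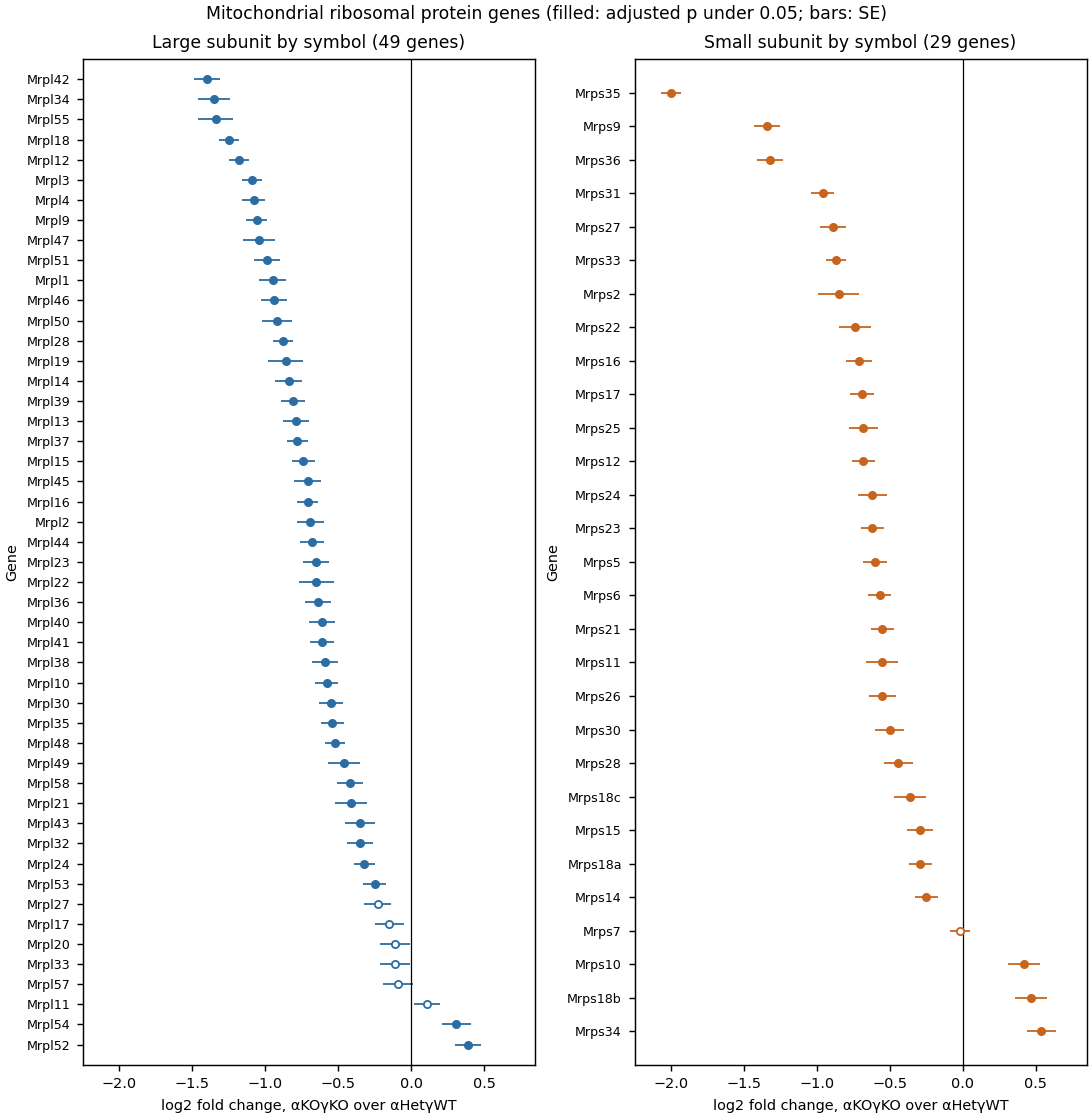
The log2 fold change of every member in αKOγKO over αHetγWT (horizontal axis, edgeR, bars are the SE) for the large (left) and small (right) subunit. Filled points passed an adjusted p of 0.05; 66 filled points lie left of 0 and 5 right of it, from Mrps35 at -2.00 to Mrps34 at 0.54.

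The most strongly lowered member was Mrps35, which encodes a small-subunit protein that the bacterial ribosome lacks. Mrps35 (GRCm38, chromosome 6, 147042728 to 147070906) stood at 86.4 and 85.1 RPKM (αHetγWT), 80.3 and 80.8 (αHetγKO), 86.3 and 88.7 (αKOγWT) and 23.1 and 23.7 (αKOγKO). The 6 libraries with at least 1 receptor lay together, and both αKOγKO libraries lay far below them. The mean went from 85.8 ± 0.936 to 23.4 ± 0.465 RPKM (SD, n = 2), and the log2 fold change was -2.00 ± 0.07 (SE, edgeR adjusted p = 1.35e-06), or 3.99-fold. Mrps9, whose product belongs to the part of the small subunit inherited from bacteria, stood at 61.0 and 56.8 RPKM (αHetγWT), 55.7 and 59.1 (αHetγKO), 60.1 and 51.5 (αKOγWT) and 25.6 and 24.9 (αKOγKO). Its log2 fold change was -1.34 ± 0.09 (edgeR adjusted p = 7.68e-06), and the αKOγKO libraries did not overlap the others. Mrps31, another small-subunit protein that bacteria lack, stood between 28.2 and 32.2 RPKM in the 6 other libraries and at 17.5 and 17.8 in αKOγKO. Its log2 fold change was -0.96 ± 0.08 (edgeR adjusted p = 3.02e-05). Mrps36 was lowered as strongly as Mrps9 but, despite its symbol, its product is known as a subunit of the oxoglutarate dehydrogenase complex of the citric acid cycle. It stood between 92.0 and 107 RPKM in the 6 other libraries and at 43.0 and 43.1 in αKOγKO (log2 fold change -1.32 ± 0.09, edgeR adjusted p = 9.14e-06).

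In the large subunit the most abundant member was also the most strongly lowered. Mrpl42 (GRCm38, chromosome 10, 95480805 to 95501949) stood at 431 and 391 RPKM (αHetγWT), 430 and 409 (αHetγKO), 421 and 433 (αKOγWT) and 178 and 160 (αKOγKO). The mean in αHetγWT, 411 ± 28.8 (SD, n = 2), was the highest of all members, whose median was 49.9, and it was 169 ± 12.7 in αKOγKO. The log2 fold change was -1.40 ± 0.09 (edgeR adjusted p = 6.2e-06). Mrpl12, the protein of the stalk that recruits translation factors to the ribosome, came next in abundance. It stood at 238 and 232 RPKM (αHetγWT), 231 and 228 (αHetγKO), 245 and 255 (αKOγWT) and 115 and 111 (αKOγKO), with no overlap. Its log2 fold change was -1.18 ± 0.07 (edgeR adjusted p = 4.12e-06), and it is 1 of the members with an ERR core site shown above. Mrps21, the other one shown, changed less. It stood between 153 and 172 RPKM in the 6 other libraries and at 121 and 115 in αKOγKO (log2 fold change -0.55 ± 0.08, edgeR adjusted p = 0.000634). Mrpl18, a protein of the central protuberance, stood between 105 and 127 RPKM in the other libraries and at 56.1 and 59.5 in αKOγKO (log2 fold change -1.25 ± 0.07, edgeR adjusted p = 4.24e-06).

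Mrpl34 and Mrpl55 were lower in αKOγKO and had intermediate values in αKOγWT. Mrpl34, a small protein inherited from the bacterial large subunit, stood at 66.5 and 61.5 RPKM (αHetγWT), 70.5 and 76.3 (αHetγKO), 47.6 and 48.3 (αKOγWT) and 30.3 and 24.5 (αKOγKO). The αKOγWT libraries thus lay below all αHet libraries and above both αKOγKO libraries. The log2 fold change was -1.35 ± 0.11 in αKOγKO (edgeR adjusted p = 3.87e-05) and -0.41 ± 0.11 in αKOγWT, where it did not pass (edgeR adjusted p = 0.158). Mrpl55, a protein of the large subunit, stood at 53.1 and 57.4, 64.0 and 57.9, 37.8 and 46.0, and 23.4 and 24.0 RPKM in the same order of genotypes. Its log2 fold changes were -1.34 ± 0.12 in αKOγKO (edgeR adjusted p = 4.74e-05) and -0.39 ± 0.12 in αKOγWT (edgeR adjusted p = 0.184).

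**Figure D3:**
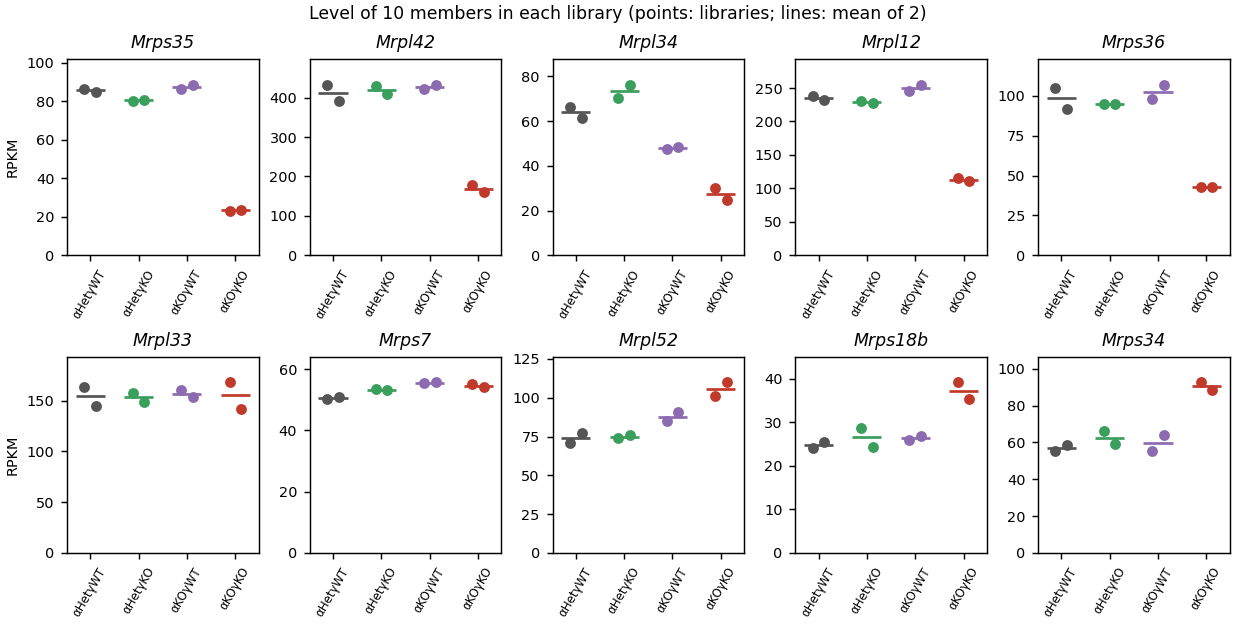
Level of 10 members in RPKM (vertical axes, starting at 0) in each of the 8 libraries by genotype; points are libraries and lines the mean of 2. Mrps35, Mrpl42, Mrpl34, Mrpl12 and Mrps36 are lowest in αKOγKO, Mrpl33 and Mrps7 are level with the other genotypes, and Mrpl52, Mrps18b and Mrps34 are highest in αKOγKO.

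By position in the ribosome, lower members were found in every region listed. Of all 78 members 84.6% were lower, and these small groups lay near that share. Members outside the lists were not assigned to a region, so the counts by region hold for the listed members only. Most unlisted members were lower, but Mrpl17 (-0.15) and Mrpl27 (-0.23) did not pass and Mrpl52 (0.39) was higher. All 7 members listed at the exit tunnel of the new peptide were lower, with a median log2 fold change of -0.68. All 5 listed for the central protuberance were lower, with a median of -0.61. Of the 4 listed for the stalk 3 were lower, the exception being Mrpl11 at 0.11 ± 0.09 (edgeR adjusted p = 0.376). Large-subunit proteins inherited from bacteria were lower in 25 of 30 cases and those added in mitochondria in 16 of 19, with medians of -0.70 and -0.61. With Mrpl55 counted as added in mitochondria, an assignment changed after the data were seen, these were 24 of 29 and 17 of 20, with medians of -0.69 and -0.61. In the small subunit 14 of 16 proteins of bacterial type and 8 of 10 of mitochondrial type were lower, with medians of -0.56 and -0.71. Here Mrps18b, which was higher, was counted as of mitochondrial type, although it is a relative of a bacterial protein. The medians of these groups lay close together compared with the SD of the log2 fold change among members, 0.41 in the large and 0.52 in the small subunit. The level of a member in αHetγWT hearts went little with its change, with a Spearman rho of -0.21 over the 78 members, which share the same libraries, and gene length likewise, with a rho of -0.16.

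Members whose human counterparts carry variants in infantile cardiomyopathy were lower in all 4 cases, by different amounts. Mrpl3, which lies close to the centre that joins amino acids, stood between 56.3 and 68.0 RPKM in the 6 other libraries and at 30.7 and 30.2 in αKOγKO (log2 fold change -1.09 ± 0.07, edgeR adjusted p = 9.93e-06). Mrps22 stood between 16.6 and 19.6 RPKM against 12.2 and 11.8 (-0.74 ± 0.11, edgeR adjusted p = 0.000779), and Mrpl44 between 32.6 and 37.5 against 22.0 and 23.6 (-0.68 ± 0.08, edgeR adjusted p = 0.000184). None of these 3 overlapped between αKOγKO and the rest. Mrps14 stood at 25.1 and 23.9 RPKM in αHetγWT and at 23.3 and 21.7 in αKOγKO, below all other libraries (log2 fold change -0.25 ± 0.08, edgeR adjusted p = 0.0384), and 13 of the other settings tried did not call it.

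The 5 members that were higher in αKOγKO rose by at most 1.46-fold. Mrps34, a small-subunit protein that bacteria lack, stood at 55.2 and 58.8 RPKM (αHetγWT), 66.1 and 59.0 (αHetγKO), 55.5 and 64.2 (αKOγWT) and 92.7 and 88.3 (αKOγKO). Both αKOγKO libraries lay above all others, and the log2 fold change was 0.54 ± 0.10 (edgeR adjusted p = 0.00332). Exons of Mrps34 overlap those of Nme3 and Mapk8ip3 in the GENCODE annotation, and whether the reads were counted by strand is not given in the sources used here. Mrps18b, 1 of 3 relatives of a single bacterial protein, stood at 24.1 and 25.5 RPKM (αHetγWT), 28.8 and 24.3 (αHetγKO), 25.9 and 26.9 (αKOγWT) and 39.2 and 35.4 (αKOγKO) (log2 fold change 0.47 ± 0.11, edgeR adjusted p = 0.0105). Mrps10, a small-subunit protein of bacterial type, stood between 16.9 and 22.5 RPKM in the other libraries and at 24.7 and 25.2 in αKOγKO (0.42 ± 0.11, edgeR adjusted p = 0.0172). Mrpl52 and Mrpl54 belong to the large subunit and have no bacterial counterpart. Mrpl52 stood at 70.9 and 77.2 RPKM (αHetγWT), 74.1 and 75.8 (αHetγKO), 84.7 and 91.1 (αKOγWT) and 101 and 110 (αKOγKO) (0.39 ± 0.09, edgeR adjusted p = 0.00817). Mrpl54 stood between 53.4 and 67.8 RPKM in the other libraries and at 80.0 and 73.5 in αKOγKO (0.31 ± 0.10, edgeR adjusted p = 0.0328). After TMM scaling the αKOγKO libraries of Mrpl54 overlapped the rest, and those of the other 4 did not. These rises rested on few libraries: without αHetγWT replicate 1 only Mrps34 passed, which was also the only one of the 5 called in every setting.

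The 3 relatives of bacterial S18 did not change alike. Mrps18b was higher, whereas Mrps18c, which stood at 54.2 and 55.2 RPKM (αHetγWT), 45.8 and 55.0 (αHetγKO), 57.0 and 58.4 (αKOγWT) and 42.3 and 50.7 (αKOγKO), was lower at -0.36 ± 0.11 (edgeR adjusted p = 0.0291) with libraries that overlapped. Mrps18a, whose product sits in the large subunit despite its symbol, stood between 57.9 and 62.7 RPKM in the other libraries and at 50.1 and 56.4 in αKOγKO (-0.29 ± 0.08, edgeR adjusted p = 0.0197). Mrps18a was called in all but 6 of the other settings tried and Mrps18c in all but 7. Mrps30, which also belongs to the large subunit, stood between 25.1 and 29.7 RPKM against 20.8 and 19.6 (-0.50 ± 0.10, edgeR adjusted p = 0.00403).

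The 7 members that did not pass included abundant ones. Mrpl33, a small protein of bacterial type, stood at 163 and 145 RPKM (αHetγWT), 157 and 149 (αHetγKO), 160 and 153 (αKOγWT) and 168 and 142 (αKOγKO). The replicates of αKOγKO spanned the values of all others, and the log2 fold change was -0.11 ± 0.10 (edgeR adjusted p = 0.411). Mrps7, which helps to form the head of the small subunit, stood at 50.3 and 50.9 RPKM in αHetγWT and at 55.0 and 54.0 in αKOγKO (-0.02 ± 0.07, edgeR adjusted p = 0.857). The log2 fold changes of Mrpl20 (-0.11 ± 0.10), Mrpl57 (-0.09 ± 0.10) and Mrpl11 (0.11 ± 0.09) were likewise close to their SE. Mrpl27 and Mrpl17 were at -0.23 and -0.15, with edgeR adjusted p of 0.0628 and 0.263. For Mrpl33, Mrpl20, Mrpl57 and Mrps7 the sign turned with limma on log2(RPKM + 1), where they were at 0.01, 0.02, 0.03 and 0.10.

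Members made up a smaller share of the RNA in αKOγKO hearts. The ratio of the summed large to the summed small subunit was slightly lower there, by a smaller step when Mrpl42 was left out. Of all uniquely assigned reads, members took 0.467% and 0.453% (αHetγWT), 0.468% and 0.457% (αHetγKO), 0.458% and 0.473% (αKOγWT) and 0.316% and 0.312% (αKOγKO). The 6 other libraries differed little and the αKOγKO libraries did not overlap them. Summed RPKM of the large subunit was 3009 to 3117 in the other libraries and 2074 and 2034 in αKOγKO. That of the small subunit was 1465 to 1559 and then 1103 and 1097. The ratio of the large to the small sum was 2.06, 2.05, 2.06, 2.06, 2.01 and 1.99 in the other libraries and 1.88 and 1.85 in αKOγKO. An alternative chosen after seeing the data left Mrpl42 out of the sum. The ratio was then 1.77 and 1.79 (αHetγWT), 1.78 and 1.78 (αHetγKO), 1.73 and 1.71 (αKOγWT) and 1.72 and 1.71 (αKOγKO). The αKOγKO libraries then overlapped αKOγWT but still lay below the αHet libraries. Leaving out the most lowered large member, and no small member, narrows the step by construction. The median log2 fold changes of the subunits differed by -0.05 (large minus small). The difference was -0.04 when Mrps30 and Mrps18a were counted as large and Mrps36 was left out. By that structural assignment 43 of 51 members of the large and 22 of 26 of the small subunit were lower.

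**Figure D4:**
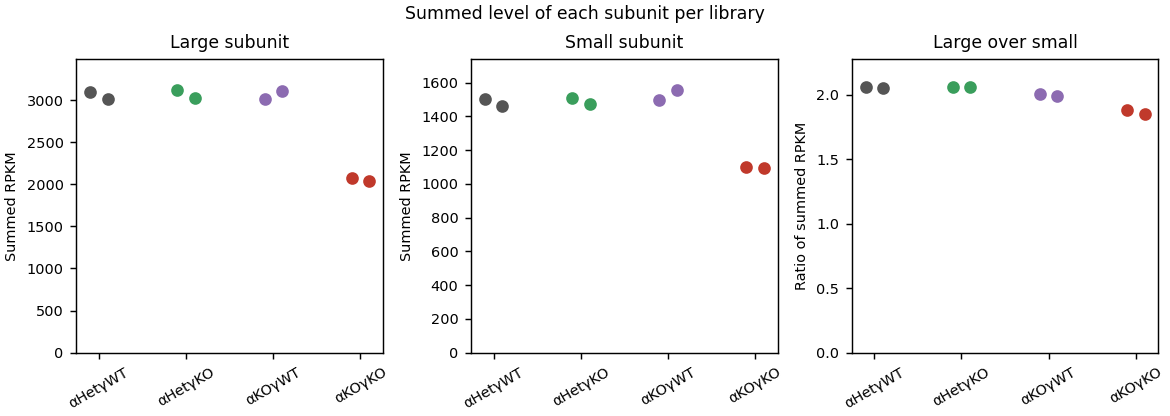
Summed RPKM of the large (left) and small (middle) subunit members and their ratio (right) in each library, 2 points per genotype, axes starting at 0. Both sums are lowest in αKOγKO (2074 and 2034, 1103 and 1097), and the ratio is lower there by a small step (1.88 and 1.85).

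Loss of 1 receptor alone gave no member that passed the test. In αHetγKO against αHetγWT, 0 of 78 members were lower and 0 higher (edgeR), against 0% and 0.00663% of all genes tested, and 1 member, Mrpl48, had an unadjusted p under 0.05. The log2 fold changes ran from -0.20 to 0.20 with a median of -0.01. DESeq2 and limma on log2(RPKM + 1) also called 0 members. In αKOγWT against αHetγWT, 0 members were lower and 0 higher (edgeR), against 0.491% and 0.743% of all genes tested, and 9 had an unadjusted p under 0.05. The log2 fold changes ran from -0.41 for Mrpl34 to 0.39 for Mrpl19 with a median of 0.03. DESeq2 and limma on log2(RPKM + 1) called 0 members here too, while array weights called Mrpl34 (adjusted p = 0.0421 from limma voom). Without αKOγKO replicate 1 or replicate 2, which are in the fit only for the estimate of the spread, Mrpl34 was called lower (edgeR adjusted p = 0.0182 and 0.0169) and Mrpl19 higher (0.0346 and 0.0351).

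Nearly the same number of members were lower in αKOγKO against either genotype that lacked 1 receptor. The comparisons share the αKOγKO libraries and are therefore given side by side. Against αKOγWT, 66 members were lower and 2 higher in αKOγKO (18.2% and 16.6% of all genes tested), with a median log2 fold change of -0.64. The higher ones were Mrps34 at 0.47 ± 0.10 and Mrps18b at 0.37 ± 0.11. Against αHetγKO, 64 were lower and 5 higher (19.6% and 18.7% of all genes tested), with a median of -0.63, and the 5 were again Mrps34, Mrps18b, Mrps10, Mrpl52 and Mrpl54. The counts of higher members depended on single libraries. Against αHetγKO the count fell to 0 without αHetγKO replicate 2, to 2 without αHetγKO replicate 1 or αKOγKO replicate 1 and to 3 without either αHetγWT library. Against αKOγWT it fell to 0 without αKOγWT replicate 1 and to 1 without αKOγWT replicate 2, αKOγKO replicate 1 or either αHetγWT library.

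For most members, the log2 change on ERRγ removal differed between hearts without ERRα and hearts with 1 copy left. This interaction (the log2 change on ERRγ removal in the αKO background, less the one in the αHet background) was negative and past the threshold for 56 members and positive for 0 (edgeR), against 10.7% and 6.77% of all genes tested. It was called in 36 of 49 members of the large and 20 of 29 of the small subunit, with medians of -0.63 and -0.69. An unadjusted p under 0.05 was found for 65 members. The DESeq2 Wald test called 53 lower and 0 higher, and limma on log2(RPKM + 1) 48 lower and 1 higher. The lowest value was that of Mrps35, -1.93 ± 0.09 (edgeR adjusted p = 2.44e-05). Of the members called higher in αKOγKO, none passed, with values from 0.09 (Mrps10 and Mrpl54) to 0.35 ± 0.15 (Mrps34, edgeR adjusted p = 0.149).

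**Figure D5:**
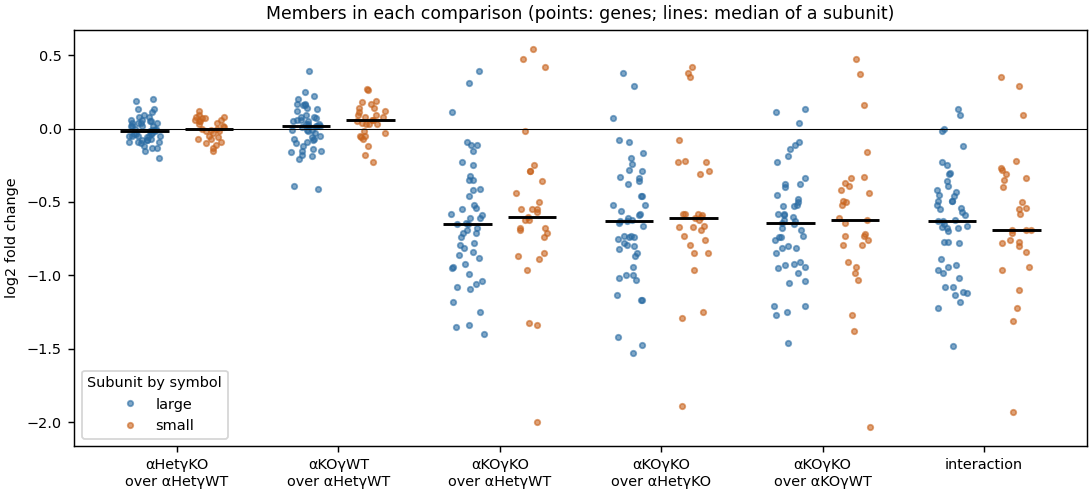
The log2 fold change (vertical axis, edgeR) of every member in each comparison, with the large subunit in blue and the small in orange; horizontal lines are medians. With loss of 1 receptor members stay between -0.41 and 0.39, and in the 3 comparisons of αKOγKO the medians lie from -0.60 to -0.65; comparisons to the right share the αKOγKO libraries.

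Some proteins of the mitochondrial ribosome with other names, and most of the listed factors it works with, were lower as well. Of 5 ribosomal proteins under other symbols, 3 were lower, while of all genes tested 21.5% were lower and 20.7% higher. Ptcd3, an RNA-binding protein of the small subunit, stood between 46.5 and 55.8 RPKM in the other libraries and at 23.9 and 21.2 in αKOγKO (log2 fold change -1.30 ± 0.10, edgeR adjusted p = 2.26e-05). Dap3, a GTP-binding protein of the small subunit, was at -0.63 ± 0.07 and Gadd45gip1, of the large subunit, at -0.55 ± 0.08. Aurkaip1 and Chchd1 did not pass, at -0.14 ± 0.08 and 0.19 ± 0.10. Of 17 translation factors of mitochondria, 16 were lower, with a median of -0.77. Tufm, the factor that delivers charged tRNA, went from 164 and 161 RPKM in αHetγWT to 64.1 and 66.3 in αKOγKO (-1.44 ± 0.06, edgeR adjusted p = 1.59e-06). Gfm1, the factor that moves the ribosome along the messenger, was at -1.27 ± 0.07, and Lrpprc, which binds mitochondrial messenger RNAs, at -1.56 ± 0.09.

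Genes for assembly of the mitochondrial ribosome were lower in 19 of 27 cases, with a median of -0.51 and 0 higher. The shares over all genes tested were 21.5% lower and 20.7% higher. Among the assembly genes Mrm3 and Mrm2, which methylate mitochondrial ribosomal RNA, were at -1.68 ± 0.17 and -1.29 ± 0.13. Afg3l2, a subunit of a protease of the inner membrane that processes a ribosomal protein, was at -0.75 ± 0.08. Of 20 genes that charge mitochondrial tRNAs with amino acids, 17 were lower, with a median of -0.50. Cars2, Fars2 and Nars2, which charge the tRNAs for cysteine, phenylalanine and asparagine, were at -1.04 ± 0.08, -0.75 ± 0.08 and -0.86 ± 0.11. The genes for the nuclear subunits of the respiratory chain and ATP synthase, with which the products of this ribosome assemble, were lower in 78 of 80 cases with a median of -1.45. The ribosome of the cytosol moved in the other direction, with 72 of 76 protein genes higher, 0 lower and a median of 0.52. These lists were chosen with earlier results of these data known.

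Sums of marker genes listed for several cell types also differed between αKOγKO and the other hearts. The heart label fitted the markers, since 8 cardiomyocyte markers summed to 41770 to 47230 RPKM in the other libraries and to 31913 to 37963 in αKOγKO, with 4 of 8 lower there. The sum of 8 fibroblast markers was 1112 to 1417 and then 1784 to 2673, with 5 of 8 higher. That of 8 macrophage markers was 92.4 to 128 and then 158 to 217, with 3 of 8 higher. The sum of 8 endothelial markers was 497 to 584 and then 403 to 415, with 6 of 8 lower. Of all genes tested 21.5% were lower and 20.7% higher, and in a list of 8 genes the macrophage count lies not far from that. Of 5 skeletal muscle markers, which summed to 1913 to 2215 and then 2516 to 3884 RPKM, 4 were tested, and Acta1 (4.96 on the log2 scale) and Tnnt3 (2.94) were higher and Ckm (-0.73) lower. The fifth, Myh1, had reads only in αHetγWT and αKOγKO, at most 0.0359 RPKM. These markers went both ways, and their higher sum was not read as more skeletal muscle. No marker of the other 4 lists was at 0 in any genotype, and the part of all 5 lists in the change of the members was not tested. The sum of 7 red cell markers, 1258 and 1385 in αKOγKO, lay within the range of 1082 to 3541 of the other libraries.

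Members are short genes that often lie close to another gene. Their median length in the tables was 1064 bases, against 2830 for all genes tested, and they are spread over 17 chromosomes with 11 members on chromosome 11. In GENCODE, 19 of 78 members (24.4%) have a protein-coding gene that starts within 1000 bases on the opposite strand and points away, against 9.88% of 14217 tested protein-coding genes. An overlap of at most 100 bases was allowed. Mrpl46 and Mrps11, whose exons overlap, were not counted as such a pair. Of these 19 partners, 6 were lower, 4 higher and 9 neither in αKOγKO against αHetγWT, with a median log2 fold change of -0.24. Of all genes tested 21.5% were lower and 20.7% higher, so that so few partners do not stand apart from other genes. Mrpl36 and its partner Ndufs6, a subunit of respiratory complex I, were both lower, at -0.64 and -1.38. Mrpl49 and its partner Fau, which encodes a protein of the cytosolic ribosome, went in opposite directions, at -0.46 and 0.53. Mrpl54 and Mrps18b, both higher, have the lower partners Apba3 (-0.60) and Ppp1r10 (-0.46), whereas Mrps34 and its partner Eme2 were both higher, at 0.54 and 0.77. These partners were picked after their values were seen. Exons of 31 members overlap those of another gene, 23 of them those of a protein-coding gene, among them Mrpl18 with Tcp1, Mrps7 with Gga3 and Mif4gd, and Mrpl46 and Mrps11 with each other. For a read in such an overlap the gene of origin cannot be told apart without strand.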

How the data were processed

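Heart RNA was sequenced from TruSeq libraries. For each library the authors deposited whole-number counts of uniquely assigned reads per gene, RPKM (the count divided by gene length and by the total of the table) and a coverage score that the file headers do not define and that was not used here. Build mm10 is named in the submitters' processing notes, whereas aligner, counter and strand setting are not given in the sources used here. Genes not listed in a table were given a count of 0. Depth was 28.2 to 36.8 M reads per library.

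Differences were tested in edgeR 4.0.16 (R 4.3.3) on 15076 genes that passed filterByExpr (at least 10 reads, total of at least 15) after TMM scaling. The model held 1 mean for each genotype over the 8 libraries, leaving 4 residual degrees of freedom, with two-sided quasi-likelihood tests and Benjamini-Hochberg adjustment over all genes tested at 0.05. The fit was also tested on simulated data with known changes. These were drawn with the same spread in all genotypes, so they do not cover the wider spread between αKOγKO replicates. SE values were derived from the log2 fold change and F. Libraries enter the groups by GEO's genotype labels. Replicate numbers are shared by the genotypes, but the labels give no shared litter or day.

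Genes named by rule were the 5 lowest and 5 highest log2 fold changes of the large and 4 of the small subunit in αKOγKO, the 3 most abundant of each subunit, members with the smallest adjusted p in the other tests (up to 6), symbols that do not match their structure, genes of human infant cardiomyopathy, ribosomal proteins of other names, up to 3 genes of each related list, and Esrra and Esrrg. This gave 44 genes, 28 of them members. The members and lists were chosen with earlier results of these data known. Other members were named after their values were seen.

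Alternatives were DESeq2 1.42.0 size factors and Wald test, upper-quartile factors, limma 3.58.1 on log2(RPKM + 1) and log2(RPKM + 0.1), filtering at a mean of 5 RPKM or not at all, voom with array weights, a fit restricted to αKOγKO and αHetγWT, a replicate block, subunits by structure, the other genotypes averaged as reference, and omission of each library, after which the remaining library of that genotype is assumed to vary like the others. Tables and plots were made in Python 3.11.15 with numpy 2.4.6, pandas 2.3.3, matplotlib 3.10.9 and scipy 1.17.1. Protein sequences were not used here.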

Additional observations from a re-analysis of the deposited data

Results flagged for a closer look

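For 56 of the 78 members the log2 change on ERRγ removal differed between the αKO and the αHet background. This is by the test of the difference itself, and all were in the negative direction (edgeR interaction, adjusted p under 0.05). Among the members named by rule with a small-subunit symbol, the values that passed on the log2 scale were -1.93 for Mrps35, -1.31 for Mrps36, -1.22 for Mrps9, -0.84 for Mrps23, -0.80 for Mrps31, -0.69 for Mrps22, -0.69 for Mrps30 and -0.58 for Mrps21. With a large-subunit symbol they were -1.48 for Mrpl42, -1.22 for Mrpl12, -1.13 for Mrpl3, -1.12 for Mrpl34, -1.08 for Mrpl55, -0.96 for Mrpl18 and -0.89 for Mrpl44. Those named that did not pass were Mrps34 at 0.35, Mrps18b at 0.29, Mrpl52 at 0.13, Mrps10 at 0.09, Mrpl54 at 0.09, Mrpl11 at -0.00, Mrpl33 at -0.12, Mrps7 at -0.22, Mrpl20 at -0.25, Mrps18c at -0.31, Mrpl57 at -0.31, Mrps18a at -0.34 and Mrps14 at -0.35.

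The same test passed in 3 of 5 ribosomal proteins of other names, at -1.08 for Ptcd3, -0.46 for Dap3 and -0.46 for Gadd45gip1. Over all genes tested it passed on the negative side for 10.7% and on the positive side for 6.77%. It passed in 12 of 17 translation factors, among them Tufm at -1.51, Gfm1 at -1.35 and Lrpprc at -1.29, in 10 of 27 assembly genes, among them Mrm3 at -1.38, Mrm2 at -1.33 and Afg3l2 at -0.93, and in 8 of 20 genes of tRNA charging, among them Cars2 at -1.19 and Fars2 at -0.94. It did not pass for Nars2 (-0.39), Aurkaip1 (-0.19) or Chchd1 (0.15). For Esrrg, the gene of ERRγ itself, it was positive, at 0.70.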

How the results depend on the processing

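The count of members lower in αKOγKO against αHetγWT lay between 57 and 67 in all settings, and 57 of the 66 were called in every setting. The interaction count ran from 38 (without αHetγKO replicate 1) to 58, and 38 of 56 were called in every setting. Of 1582 values of named genes under an alternative, 1492 kept direction and side of the threshold, 51 lost their call, 8 gained one and 31 changed sign. In αKOγKO against αHetγWT, Mrpl53 lost its call in 14 settings and Mrps14 in 13.

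Leaving out each library in turn gave 1 to 5 higher members in αKOγKO against αHetγWT, 0 to 4 against αHetγKO and 0 to 2 against αKOγWT. The same in αKOγWT against αHetγWT gave 0 to 1 higher and 0 to 1 lower. With array weights the count was 3 against αHetγKO and 1 against αKOγWT, and 1 member was lower in αKOγWT against αHetγWT. The DESeq2 Wald test gave 3 against αHetγKO, and limma on either RPKM scale gave 1 higher in the interaction. Limma with a pseudocount of 0.1 shifted the median of all genes by 0.11 and gave a member median of -0.51 in αKOγKO against αHetγWT. The ratio of the large to the small sum in αKOγKO relative to αHetγWT was 0.907, 0.896 by structure and 0.962 without Mrpl42. The cause of these moves was not tested, except that the last comes from leaving out the most abundant member.

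Signs that changed were those of values near 0. The interaction of Mrpl11 (-0.00) was 0.00 with DESeq2 size factors, the DESeq2 Wald test and the replicate block, 0.01 without filter and with array weights, 0.03 with upper-quartile factors and at a mean of 5 RPKM, 0.11 and 0.12 with limma, and -0.10 to 0.12 on leaving out a library. That of Esrra was 0.03 and 0.06 with limma and -0.26 to 0.19 on leaving out a library, which gave -0.25 to 0.01 for Mrpl33 and -0.06 to 0.26 for Mrps10. In αKOγKO against αHetγWT limma gave 0.02 for Mrpl20, 0.01 for Mrpl33, 0.03 for Mrpl57, and 0.10 and 0.11 for Mrps7. Mrps7 was also at 0.03 with upper-quartile factors and at 0.00 at a mean of 5 RPKM. Leaving out a library gave -0.04 to 0.00 for Mrps7 and -0.26 to 0.01 for Mrpl33.

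With the replicate number as a block, 65 members were lower and 5 higher in αKOγKO against αHetγWT, and 52 were lower in the interaction. Same-numbered libraries did not deviate together, with correlations of -0.18 to 0.09, so the numbers were not read as pairs. With 2 pooled libraries per genotype, small changes are not resolved, and a count of 0 after loss of 1 receptor does not show that members did not change.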
